A study of Homo sapiens with 13 samples.

Results

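The 37 genes described here encode proteins of the endoplasmic reticulum (ER): chaperones, folding enzymes, components of ER-associated degradation (ERAD), and sensors and factors of the unfolded protein response (UPR). They were taken from a table of 26454 genes by symbol. The symbol column held 36 of them, and ERO1L was found as ERO1A through its older symbol in the annotation column. RNA from U2OS, a human osteosarcoma cell line, was sequenced in 2 forms: ribosome-depleted total RNA, and RNA recovered by immunoprecipitation (IP) of eIF4G, the scaffold of the complex that joins capped mRNAs to the ribosome. All cells carried an siRNA for 48 h, so the controls were transfected cells too. The groups were control siRNA with mock treatment (3 IP and 2 total RNA libraries), an siRNA against CDK12, a kinase of RNA polymerase II, with mock treatment (2 and 2), and control siRNA with 24 h of rapamycin at 50 ng/ml, which blocks the nutrient-sensing kinase mTORC1 (2 and 2). No IP with an unrelated antibody was analysed here. Separate cultures are not stated for the replicates, and the p-values then reflect only the spread among these libraries, which may be technical.

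The libraries held 12874320 to 30617691 tags, as recovered from the values, and the lowest number of reads behind any member's value was 17. The deposited unit is FPKM, fragments per kilobase of gene body scaled by depth, with introns counted. Scaled FPKM below are these values divided by a factor per library, 0.869 to 1.23. CDK12 itself was listed at 1.64 and 1.72 FPKM in control total RNA and at 0.706 and 0.707 FPKM after its siRNA. In the IP it was at 0.497, 0.532 and 0.535 FPKM in control cells and at 0.493 and 0.338 FPKM after the siRNA. Of 12 mesenchymal and osteosarcoma markers, 8 had a mean FPKM of at least 1, beside 3 of 7 epithelial markers (KRT8, KRT18 and CLDN4) and 0 of 6 haematopoietic markers, whose summed level was 0.196 to 0.538 FPKM. The 2 CDK12 siRNA IP libraries stood apart from each other. Their chi-square per degree of freedom was 57.6, against 3.53 to 22.4 for the other replicate pairs, and the ER genes differed between them by up to 1.39 on the log2 scale. All rapamycin libraries are labelled with 1 date code and all control and CDK12 siRNA libraries with another, so the effects of date and of rapamycin cannot be told apart. In bulk RNA, fewer cells in a given state and less RNA per cell cannot be told apart either.

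The ER folds secreted and membrane proteins. BiP (HSPA5), an Hsp70 chaperone, binds unfolded chains with its J-domain partners, calnexin and calreticulin hold glycoproteins, and protein disulfide isomerases form disulfide bonds. Chains that fail to fold are pulled back to the cytosol and degraded by ERAD. When unfolded proteins accumulate, the sensors IRE1 (ERN1), PERK (EIF2AK3) and ATF6 start the UPR: IRE1 splices the mRNA of the transcription factor XBP1, PERK dampens translation while favouring ATF4, and ATF6 enters the nucleus after cleavage. XBP1 and ATF6 act through ER stress elements in the promoters of chaperone genes.

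The genes spanned a wide range of levels. In the control IP the glycoprotein chaperone CALR (chr19:13049414-13055304, hg19) was at 478, 489 and 494 scaled FPKM and the prolyl isomerase PPIB at 305, 273 and 267, whereas EDEM1, a lectin of ERAD, was at 3.15, 3.39 and 3.62. The gene bodies ran from 2046 bp (SDF2L1) to 251655 bp (SIL1), with a median of 25628 bp against 15088 bp in the whole table. Of the 37 genes, 10 overlap another gene: HSP90B1, CALR, PDIA5 and SYVN1 hold a microRNA gene on the same strand, TXNDC5 shares its strand with the readthrough gene BLOC1S5-TXNDC5, and PDIA3 (ELL3), PDIA6 (ATP6V1C2), TXNDC5 (BMP6), PPIB (SNX22), SYVN1 (MRPL49), EIF2AK3 (LOC101928371) and CALU (OPN1SW) overlap a gene on the opposite strand. Without the strand setting, reads of genes on opposite strands cannot be told apart, and no strand setting separates those on the same strand. SIL1, a nucleotide exchange factor of BiP, the sensors ATF6 and ERN1, and WFS1, an ER membrane protein, did not reach an FPKM of 1 in at least 2 libraries. These 4 genes were not tested, which left 33 of 37 members among 9908 tested genes. ERN1 was listed at 0.105 to 0.564 FPKM and ATF6 at 0.651 to 0.976 FPKM over the 13 libraries.

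**Figure D1:**
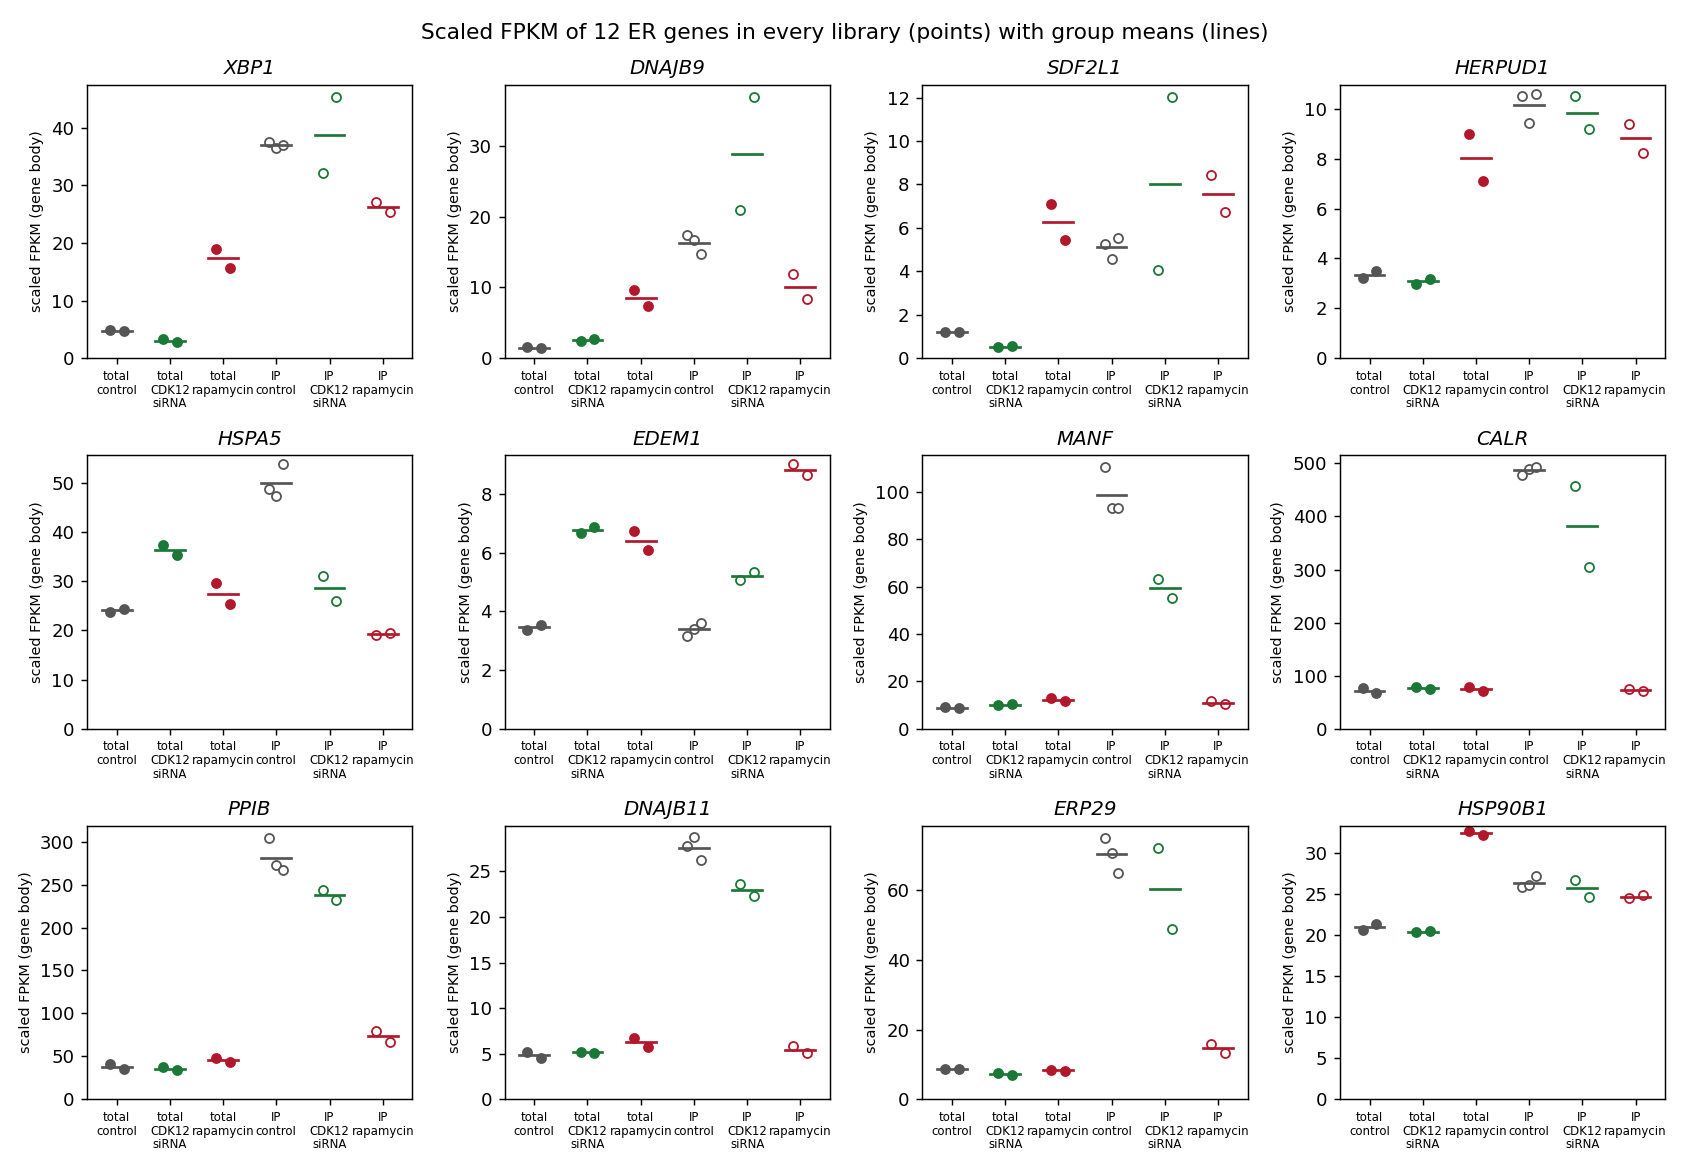
Scaled FPKM (vertical axes, linear, from 0) of 12 ER genes in the 6 groups. Points are libraries, filled for total RNA and open for the IP, and lines are group means. In total RNA XBP1, DNAJB9, SDF2L1 and HERPUD1 are highest with rapamycin, and in the IP MANF, CALR, PPIB, DNAJB11 and ERP29 are lowest with rapamycin.

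In control cells most ER genes had higher values in the eIF4G IP than in total RNA. Changes are differences of group means of log2(scaled FPKM + 1) with the standard error (SE) from limma, and calls are adjusted p-values under 0.05, adjusted over all tested genes. Of the 33 tested genes, 29 were called higher, against 54.0% of all tested genes, and 2 lower, against 26.4%. After quantile normalization, which gives every library the same distribution of values, 16 were called higher and 11 lower. The median change was 1.16, beside 0.35 over all genes. Among 2128 genes with a mean FPKM of at least 5, 21 of 22 ER genes were called higher, against 87.5% of all, and 0 lower, against 5.22%, with medians of 1.63 and 1.67. The mean is over all 13 libraries, so a gene high in the IP can pass this filter through the IP itself. The share called higher lay near that of this set, which is no independent match for level.

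MANF, a secreted ER-resident growth factor (chr3:51422668-51426828, hg19), had the widest gap. It was at 110.3, 93.1 and 93.1 scaled FPKM in the IP and at 8.94 and 8.56 in total RNA, a change of 3.35 ± 0.11 (adjusted p = 5.27e-08). ERP29, a disulfide isomerase homologue of the ER lumen, was at 75.1, 70.8 and 65.0 scaled FPKM in the IP and at 8.62 and 8.56 in total RNA, a change of 2.89 ± 0.16 (adjusted p = 1.87e-07). PPIB, at 40.9 and 35.1 scaled FPKM in total RNA against its IP values above, rose by 2.86 ± 0.12 (adjusted p = 7.49e-08). In these 3 genes every IP library lay above both total RNA libraries, as in 29 of the 33 ER genes. How many of all tested genes did so was not counted. The 2 genes called lower in the IP were PDIA5, a disulfide isomerase, and the sensor EIF2AK3. Both reached an FPKM of 1 only in total RNA libraries, so they were tested only through the fraction where they were higher. PDIA5 was at 0.460, 0.447 and 0.502 scaled FPKM in the IP and at 0.965 and 0.857 in total RNA, a change of -0.38 ± 0.05 (adjusted p = 3.03e-05). EIF2AK3 was at 0.889, 0.962 and 0.895 in the IP and at 1.24 and 1.23 in total RNA, a change of -0.22 ± 0.06 (adjusted p = 0.00854). Both have long gene bodies, 95097 and 68189 bp. Across the 33 genes the change correlated with gene length at Spearman's rho of -0.61, and across all 9908 genes at -0.33. Genes are not independent replicates, and introns add to the length while a spliced RNA has none, so these coefficients are descriptions. With the length trend removed the median was 0.73, against -0.02 over all genes.

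By role, all 8 tested Hsp70 and Hsp90 chaperones and co-chaperones were called higher in the control IP, with a median of 0.94. The lectin chaperones and oxidative folding enzymes gave 11 higher and 1 lower of 12, with a median of 1.31. The ERAD genes gave 6 of 8, with a median of 0.59, and neither EDEM1 (-0.03 ± 0.07) nor the ubiquitin ligase SYVN1 (-0.23 ± 0.14) was called. After quantile normalization 9 of the 29 genes called higher had a change below 0: HSPA5, HSP90B1, HYOU1, DNAJC10, CANX, P4HB, TXNDC5, SEL1L and DERL1. The calls of CALR (0.24, adjusted p = 0.308), PDIA3 (0.08, adjusted p = 0.541), HERPUD1 (0.22, adjusted p = 0.0746) and CALU (0.25, adjusted p = 0.142) were lost there too. PDIA5 fell below the filter without the first control or the second CDK12 siRNA total RNA library, which left 1 gene called lower. Leaving out the first control total RNA library ended the call of HSP90B1, at 0.28 (adjusted p = 0.0505), and that of HYOU1, at 0.51 (adjusted p = 0.0613). Without the second control total RNA library HYOU1 was at 0.41 (adjusted p = 0.122) and SEL1L at 0.19 (adjusted p = 0.0518), and without IP replicate 3 of the controls HYOU1 was at 0.43 (adjusted p = 0.0621).

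A set of UPR genes was higher in total RNA of the rapamycin libraries than of the controls. Of the 33 tested ER genes 18 were called higher, against 20.4% of all tested genes, and 1 lower, against 16.2%, with a median change of 0.41 beside 0.06 over all genes. The median of the ER genes was 0.15 after quantile normalization and 0.64 with no scaling between libraries. DNAJC3, among the 18, reached an FPKM of 1 only in the rapamycin total RNA libraries and was tested only through them. Among genes with a mean FPKM of at least 5, 12 of 22 ER genes were called higher, against 31.0% of all, and 0 lower, against 6.39%, with medians of 0.38 and 0.24. The 4 genes that rose at least 2-fold on this scale were DNAJB9, SDF2L1, XBP1 and HERPUD1. Of all 9908 tested genes 278 were called and rose at least 2-fold. Without the first rapamycin total RNA library 11 genes were called higher, and leaving out other libraries gave 13 to 22. Over all tested genes the calls in both directions went from 3632 to 1734 with that omission.

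DNAJB9 (ERdj4), a J-domain co-chaperone of BiP that also holds IRE1 in check (chr7:108210189-108215294, hg19), rose most. It was at 1.58 and 1.40 scaled FPKM in control total RNA and at 9.69 and 7.35 with rapamycin, a change of 1.92 ± 0.25 (adjusted p = 0.000475). SDF2L1, a partner of BiP complexes, was at 1.21 and 1.21 in control cells and at 7.10 and 5.45 with rapamycin, a change of 1.71 ± 0.34 (adjusted p = 0.0047). XBP1 (chr22:29190548-29196560, hg19) was at 4.89 and 4.69 in control cells and at 19.0 and 15.6 with rapamycin, a change of 1.66 ± 0.16 (adjusted p = 0.00013). In all 3 genes the lower rapamycin library lay more than 3-fold above the higher control library. HERPUD1, a membrane component of ERAD, was at 3.21 and 3.49 in control cells and at 8.98 and 7.10 with rapamycin, a change of 1.05 ± 0.12 (adjusted p = 0.000271). The table counts whole genes, so spliced and unspliced XBP1 were not told apart here.

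Not all chaperones passed the test. HSP90B1 (GRP94), the Hsp90 of the ER, was at 20.5 and 21.4 scaled FPKM in control total RNA and at 32.6 and 32.1 with rapamycin, a change of 0.60 ± 0.09 (adjusted p = 0.00102), which was 0.09 after quantile normalization (adjusted p = 0.529). HSPA5 was at 23.8 and 24.4 in control cells and at 29.6 and 25.4 with rapamycin, and its change of 0.18 ± 0.12 was not called (adjusted p = 0.286). With no scaling between libraries HSPA5 was called higher, at 0.43 (adjusted p = 0.0255). CALR was at 76.4 and 66.8 in control cells and at 77.6 and 70.7 with rapamycin, so the groups overlapped (0.05 ± 0.17, adjusted p = 0.829). Among ERAD genes 5 of 8 were called higher, with a median of 0.65, as were 5 of 8 Hsp70 and Hsp90 family members and co-chaperones, with a median of 0.41, and 5 of 12 lectin chaperones and oxidative folding enzymes, with a median of 0.24. EIF2AK3, at 1.24 and 1.23 in control cells and at 1.32 and 1.24 with rapamycin, gave 0.03 ± 0.07 (adjusted p = 0.772). PDIA5 reached an FPKM of 1 only in the first control and the second CDK12 siRNA total RNA library, so it was tested in part through the control group. It was the member called lower, at 0.965 and 0.857 against 0.729 and 0.712 scaled FPKM with rapamycin. The change was -0.15 ± 0.05 (adjusted p = 0.0398). That call was lost without any control IP library, the first CDK12 siRNA total RNA library, the second control total RNA library or either rapamycin total RNA library (adjusted p = 0.052 to 0.152), and with the gene length trend removed the change was 0.01.

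Several of the smaller rises lost their call under other settings. Quantile normalization ended those of CANX (0.12, adjusted p = 0.45), PDIA6 (0.06, adjusted p = 0.626), P4HB (0.07, adjusted p = 0.658) and MANF (0.15, adjusted p = 0.3), besides that of HSP90B1. Without the first rapamycin total RNA library the calls of CANX (0.45, adjusted p = 0.0616), DNAJC10 (0.30, adjusted p = 0.0807), PDIA6 (0.27, adjusted p = 0.186), P4HB (0.38, adjusted p = 0.112), MANF (0.35, adjusted p = 0.169) and DERL2 (0.48, adjusted p = 0.206) were lost. Without the first control total RNA library those of DNAJC10 (0.32, adjusted p = 0.06), PDIA6 (0.33, adjusted p = 0.11), P4HB (0.48, adjusted p = 0.0556), MANF (0.45, adjusted p = 0.0869) and DERL2 (0.57, adjusted p = 0.133) were lost. Without the second those of PDIA6 (0.35, adjusted p = 0.1), P4HB (0.43, adjusted p = 0.0819), MANF (0.40, adjusted p = 0.129) and DERL2 (0.56, adjusted p = 0.138) were lost. MANF (0.49, adjusted p = 0.0606) and DERL2 (0.65, adjusted p = 0.0893) also lost it without the second rapamycin library, and DERL2 without the second control IP library (adjusted p = 0.0562) or either CDK12 siRNA total RNA library (adjusted p = 0.0585 and 0.0595). Calls over all tested genes fell with the 4 omissions of compared libraries too, to between 1734 and 2290. No omission of a library ended the calls of the other 12 genes in the fits that tested them. DNAJC3, a J-domain co-chaperone that also inhibits PERK (0.41 ± 0.05, adjusted p = 0.000356), fell below the filter without either rapamycin total RNA library. Its passing of the filter and its rise rest on those same libraries.

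Some promoters of the ER genes carry known elements of the UPR factors, and they are shown for genes that rose and for genes that did not pass the test. RefSeq promoters (GRCh38.p14, 250 bases before to 50 after the start site, 300 in all) were matched for 35 of the 37 genes. The ER stress element (ERSE: CCAAT, then 9 bases of any kind, then CCACG, sought on both strands like the other motifs) was in 6 of the 35, namely HSPA5, HSP90B1, CALR, CANX, XBP1 and CRELD2, and in 27 of 35116 promoters (0.0769%). The related ERSE-II (ATTGG, then 1 base of any kind, then CCACG) was in 3, namely HYOU1, SDF2L1 and HERPUD1, and in 19 of all promoters (0.0541%). The UPR element (TGACGTGG) was in HYOU1 and DNAJC10, and in 256 of all promoters (0.729%). Elements and genes were both picked for their known part in ER folding and the UPR, so these shares are descriptions and no test of enrichment. The motifs overlap in part, since all 3 contain CCACG on one strand, and both ERSE forms contain CCAAT on one strand. These short cores alone are common: CCACG was in 24 of 35 ER genes and 38.1% of all promoters, and CCAAT in 29 of 35 and 34.6%.

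In the sequences below, read 5′ to 3′ in the direction of transcription, capitals mark the conserved letters of the element on either strand. XBP1 (chr22:28800520-28800819, minus strand) holds an ERSE at -52 to -34 from the start site. HSP90B1 (chr12:103930160-103930459, plus strand) holds 2, at -194 to -176 and, reversed, at -89 to -71. SDF2L1 (chr22:21642052-21642351, plus strand) holds a reversed ERSE-II at -188 to -178, and HERPUD1 (chr16:56931892-56932191, plus strand) an ERSE-II at -117 to -107. These 4 genes rose in total RNA with rapamycin, HSP90B1 not after quantile normalization.
XBP1: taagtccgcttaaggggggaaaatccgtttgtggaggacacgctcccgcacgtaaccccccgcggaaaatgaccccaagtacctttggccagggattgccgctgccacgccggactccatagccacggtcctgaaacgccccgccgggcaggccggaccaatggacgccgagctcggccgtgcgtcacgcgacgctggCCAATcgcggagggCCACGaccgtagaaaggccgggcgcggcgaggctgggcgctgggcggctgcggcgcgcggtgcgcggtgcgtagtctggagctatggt
HSP90B1: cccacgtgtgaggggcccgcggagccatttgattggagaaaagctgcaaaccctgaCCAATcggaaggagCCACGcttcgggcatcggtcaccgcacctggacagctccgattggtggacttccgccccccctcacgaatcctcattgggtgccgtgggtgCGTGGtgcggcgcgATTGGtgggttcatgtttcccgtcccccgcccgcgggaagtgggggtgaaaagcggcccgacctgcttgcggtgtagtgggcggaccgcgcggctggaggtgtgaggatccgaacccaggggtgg
SDF2L1: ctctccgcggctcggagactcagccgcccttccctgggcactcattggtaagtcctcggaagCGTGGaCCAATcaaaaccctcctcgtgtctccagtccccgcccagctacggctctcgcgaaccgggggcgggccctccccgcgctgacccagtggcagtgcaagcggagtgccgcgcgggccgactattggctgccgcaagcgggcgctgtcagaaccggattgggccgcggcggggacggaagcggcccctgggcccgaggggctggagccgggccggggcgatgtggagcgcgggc
HERPUD1: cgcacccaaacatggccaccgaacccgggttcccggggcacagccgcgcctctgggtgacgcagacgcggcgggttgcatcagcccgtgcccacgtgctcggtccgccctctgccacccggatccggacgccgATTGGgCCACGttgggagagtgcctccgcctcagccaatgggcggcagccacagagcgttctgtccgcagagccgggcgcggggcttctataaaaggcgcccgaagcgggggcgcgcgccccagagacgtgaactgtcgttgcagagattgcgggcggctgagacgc
HSPA5 (chr9:125241294-125241593, minus strand) holds an ERSE at -66 to -48 and CALR (chr19:12938359-12938658, plus strand) a reversed one at -225 to -207. Neither gene passed the test for a change in total RNA with rapamycin, though HSPA5 did with no scaling between libraries.
HSPA5: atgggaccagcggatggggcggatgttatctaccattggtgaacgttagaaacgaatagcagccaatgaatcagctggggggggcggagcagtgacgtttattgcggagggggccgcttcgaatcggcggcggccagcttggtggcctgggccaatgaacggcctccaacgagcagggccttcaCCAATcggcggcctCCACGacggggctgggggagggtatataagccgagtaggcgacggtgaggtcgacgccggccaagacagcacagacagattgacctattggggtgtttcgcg
CALR: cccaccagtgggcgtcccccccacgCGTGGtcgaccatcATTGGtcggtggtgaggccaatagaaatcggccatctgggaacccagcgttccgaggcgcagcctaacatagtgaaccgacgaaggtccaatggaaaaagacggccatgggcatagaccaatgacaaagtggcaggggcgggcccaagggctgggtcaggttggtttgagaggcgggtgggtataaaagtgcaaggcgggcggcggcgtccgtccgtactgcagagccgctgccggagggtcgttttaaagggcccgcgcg
Of the 18 genes that rose, 4 held an ERSE and 2 an ERSE-II. Of the 12 matched genes that were not called, 2 held an ERSE and 1 an ERSE-II. DNAJB9, the gene with the highest rise, held none of the 3 elements in this window. A match describes letters and no binding.

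**Figure D2:**
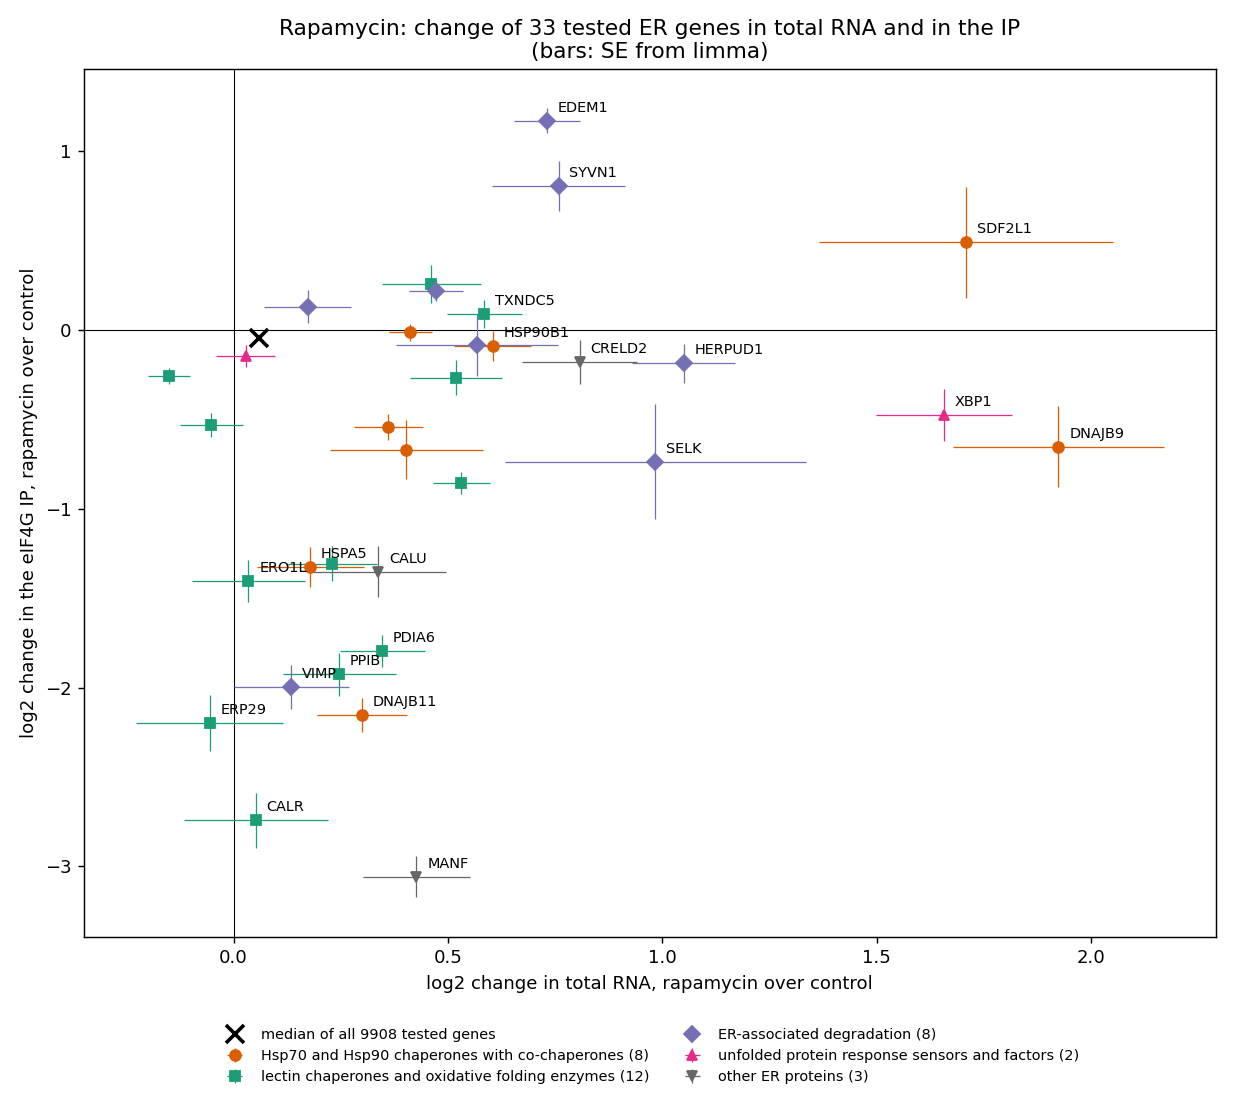
Change with rapamycin in total RNA (horizontal) and in the eIF4G IP (vertical) of the 33 tested ER genes, as differences of log2(scaled FPKM + 1). Symbols give roles, bars are SE from limma and the cross is the median of all 9908 tested genes. XBP1, DNAJB9, SDF2L1 and HERPUD1 lie far right (1.05 to 1.92), MANF, CALR, ERP29 and DNAJB11 lie lowest (-3.06 to -2.15), and EDEM1 and SYVN1 are up on both axes. After quantile normalization the IP changes of DNAJB9, XBP1, CANX, HSP90B1 and HERPUD1 turn positive.

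In the eIF4G IP with rapamycin 10 of 12 lectin chaperones and oxidative folding enzymes fell, and 5 of 8 Hsp70 and Hsp90 chaperones with co-chaperones. Of 33 tested ER genes 19 were called lower, against 40.3% of all tested genes, and 3 higher, against 32.2% (5 higher without either CDK12 siRNA IP library), with a median of -0.53 beside -0.05 over all genes. The median of the ER genes was -0.13 after quantile normalization and -0.27 with no scaling between libraries. Among genes with a mean FPKM of at least 5, 16 of 22 ER genes were called lower, against 64.0% of all, and 1 higher, against 16.6%, with medians of -0.99 and -0.75. That set takes in genes that pass through a high level in the control IP, and a fall in the IP was common in it. With quantile normalization 11 genes were called higher, and with no scaling between libraries 8 were. Of the 19 falls, 11 were at least 2-fold on this scale, as were 1503 of the 3989 falls called among all 9908 tested genes.

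MANF fell most. It went from 110.3, 93.1 and 93.1 scaled FPKM in the control IP to 11.6 and 10.4 with rapamycin, a change of -3.06 ± 0.11 (adjusted p = 1.09e-07). CALR went from 478, 489 and 494 to 73.8 and 70.1 (-2.74 ± 0.15, adjusted p = 4.77e-07). ERP29 went from 75.1, 70.8 and 65.0 to 15.9 and 13.2 (-2.20 ± 0.16, adjusted p = 1.75e-06). In these 3 genes both rapamycin IP libraries lay far below every control library. They lay below every control library in 23 of the 33 ER genes, with no such count made over all tested genes. Total RNA of the rapamycin cells held MANF at 12.7 and 11.5, CALR at 77.6 and 70.7 and ERP29 at 8.32 and 8.13 scaled FPKM. The BiP co-chaperone DNAJB11 (-2.15 ± 0.10), the ERAD selenoprotein VIMP, PPIB (-1.93 ± 0.12) and the disulfide isomerase PDIA6 (-1.79 ± 0.09) followed, with adjusted p of at most 8.07e-07. HSPA5 went from 48.9, 47.4 and 53.9 scaled FPKM to 19.1 and 19.5 (-1.33 ± 0.11, adjusted p = 5.22e-06). After quantile normalization HSPA5 was at -0.29 and lost the call (adjusted p = 0.0675). ERO1L, the oxidase that recharges disulfide isomerases, fell from 11.998, 12.3 and 10.3 to 3.88 and 3.56 (-1.40 ± 0.12, adjusted p = 5.02e-06).

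The roles gave different counts. The lectin chaperones and oxidative folding enzymes gave 10 lower of 12, with a median of -1.08, and the Hsp70 and Hsp90 family members and co-chaperones 5 lower of 8, with a median of -0.60. The ERAD genes gave 1 lower (VIMP) and 3 higher of 8, with a median of 0.02. The difference between these roles was not tested. EDEM1 (chr3:5229359-5261650, hg19), which passes misfolded glycoproteins to ERAD, rose from 3.15, 3.39 and 3.62 scaled FPKM to 9.03 and 8.66 in the IP (1.17 ± 0.07, adjusted p = 6.65e-07). In total RNA it rose from 3.37 and 3.55 to 6.74 and 6.09 (0.73 ± 0.08, adjusted p = 0.0002). SYVN1 (HRD1), the ubiquitin ligase of ERAD, rose in the IP from 1.32, 0.860 and 1.38 to 2.95 and 2.64 (0.80 ± 0.14, adjusted p = 0.000625), and in total RNA from 1.88 and 1.27 to 3.51 and 3.13 (0.76 ± 0.15, adjusted p = 0.00512). SEL1L, the adaptor of SYVN1, rose in the IP from 2.05, 2.00 and 1.92 to 2.62 and 2.33 (0.22 ± 0.06, adjusted p = 0.00703) and in total RNA from 1.61 and 1.55 to 2.79 and 2.39 (0.47 ± 0.06, adjusted p = 0.000588). Without the first rapamycin IP library the IP call of SEL1L was lost, at 0.16 (adjusted p = 0.0604). These 3 genes were the members called higher in both fractions, and in each of them no rapamycin library overlapped the controls of its fraction. Both rapamycin libraries lay above all controls in 5 of the 33 ER genes in the IP and in 26 in total RNA. The share of all tested genes that did so was not counted. SYVN1 overlaps MRPL49 on the opposite strand.

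XBP1, DNAJB9, SDF2L1 and HERPUD1, which rose most in total RNA, were not called higher in the IP. XBP1 went from 37.5, 36.4 and 36.95 scaled FPKM in the control IP to 27.2 and 25.4 with rapamycin, a change of -0.48 ± 0.15 (adjusted p = 0.0144), while its total RNA rose 3.62-fold. DNAJB9 went from 17.5, 16.7 and 14.7 to 11.9 and 8.37 in the IP (-0.65 ± 0.22, adjusted p = 0.025), while its total RNA rose 5.71-fold. HERPUD1 (-0.19 ± 0.11, adjusted p = 0.149), CRELD2 (-0.18 ± 0.12, adjusted p = 0.208) and HSP90B1 (-0.09 ± 0.08, adjusted p = 0.345) were not called in the IP. SDF2L1 was at 5.24, 4.57 and 5.51 in the control IP and at 8.42 and 6.75 with rapamycin, which was not called (0.49 ± 0.31, adjusted p = 0.187). Both rapamycin libraries lay above all controls there. The SE pools the spread of all groups, and the CDK12 siRNA IP libraries of SDF2L1 were at 4.04 and 12.01. The falls of XBP1 and DNAJB9 in the IP depended on settings. After quantile normalization they were 0.46 and 0.04, and with no scaling between libraries -0.17 (adjusted p = 0.296) and -0.36 (adjusted p = 0.156). Without the second rapamycin IP library XBP1 was at -0.42 (adjusted p = 0.0824) and DNAJB9 at -0.42 (adjusted p = 0.214), and DNAJB9 lost the call without the first (adjusted p = 0.0574) or second (adjusted p = 0.0537) control IP library. Of the other falls, that of CANX (-0.27 ± 0.10, adjusted p = 0.033) was lost without control IP replicate 2 or 3, either rapamycin IP library or either CDK12 siRNA total RNA library (adjusted p = 0.0505 to 0.144). Those of HYOU1 (-0.12, adjusted p = 0.527) and DNAJC10 (-0.09, adjusted p = 0.252) were lost after quantile normalization, and that of HYOU1 also with no scaling (-0.39, adjusted p = 0.069).

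The interaction, the change with rapamycin in the IP minus that in total RNA, compares the fractions directly. It was called lower in 27 of 33 ER genes, against 37.9% of all tested genes, and higher in 1, against 24.5%. The median was -1.22 beside -0.14 over all genes. Among genes with a mean FPKM of at least 5 it was called lower in 20 of 22 ER genes, against 70.2% of all, and higher in 1, against 7.14%, with medians of -1.52 and -1.02. MANF gave -3.48 ± 0.17 (adjusted p = 6e-06), CALR -2.79 ± 0.23 (adjusted p = 1.64e-05), DNAJB9 -2.58 ± 0.33 (adjusted p = 0.000161) and XBP1 -2.13 ± 0.22 (adjusted p = 4.42e-05). EDEM1 was the member called higher (0.44 ± 0.10, adjusted p = 0.00525). All 8 Hsp70 and Hsp90 family members and co-chaperones, 10 of 12 lectin chaperones and oxidative folding enzymes, and 5 of 8 ERAD genes were called lower. DNAJC3, among the 8, was tested only through the rapamycin total RNA libraries, where it was highest. After quantile normalization the median was -0.65, 5 genes were called higher, and HSP90B1, CANX, P4HB, TXNDC5 and DERL1 were above 0. There HSPA5 (-0.04, adjusted p = 0.885), HYOU1 (-0.29, adjusted p = 0.341) and PPIB (-0.46, adjusted p = 0.0635) lost the call. The calls of SDF2L1, DERL2 and SEL1L were lost on leaving out 11, 9 and 4 of the 13 libraries respectively.

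The 19 genes called lower in the IP fall into 3 groups by their total RNA. In 11 of them no change in total RNA was called, among them CALR, ERP29, PPIB, HSPA5 and ERO1L. In 7, CANX, DNAJB9, DNAJC10, MANF, PDIA4, PDIA6 and XBP1, total RNA was called higher. PDIA5, tested in part through a control total RNA library, was called lower in both. Of the 14 genes not called lower in the IP, 8 were called higher in total RNA alone, 3 in both fractions and 3 in neither. These joint calls were counted over the ER genes only. Of all tested genes 40.3% were called lower in the IP and 20.4% higher in total RNA, so how far this split is particular to ER genes was not tested.

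Set side by side, the enrichment in the IP was similar in size in control and CDK12 siRNA cells and near 0 with rapamycin. Over the 33 genes the median difference between IP and total RNA was 1.16 for the controls, 1.07 for CDK12 siRNA and 0.06 for rapamycin, beside 0.35, 0.40 and 0.18 over all tested genes. A difference above 1 was found for 19, 18 and 0 of the 33 genes, and for 27.8%, 29.2% and 4.57% of all. With rapamycin the ER genes ranged from -0.61 to 0.75, and MANF, at 3.35 in control cells, was at -0.13. Each of these values sets an IP against total RNA libraries with the same date code.

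**Figure D3:**
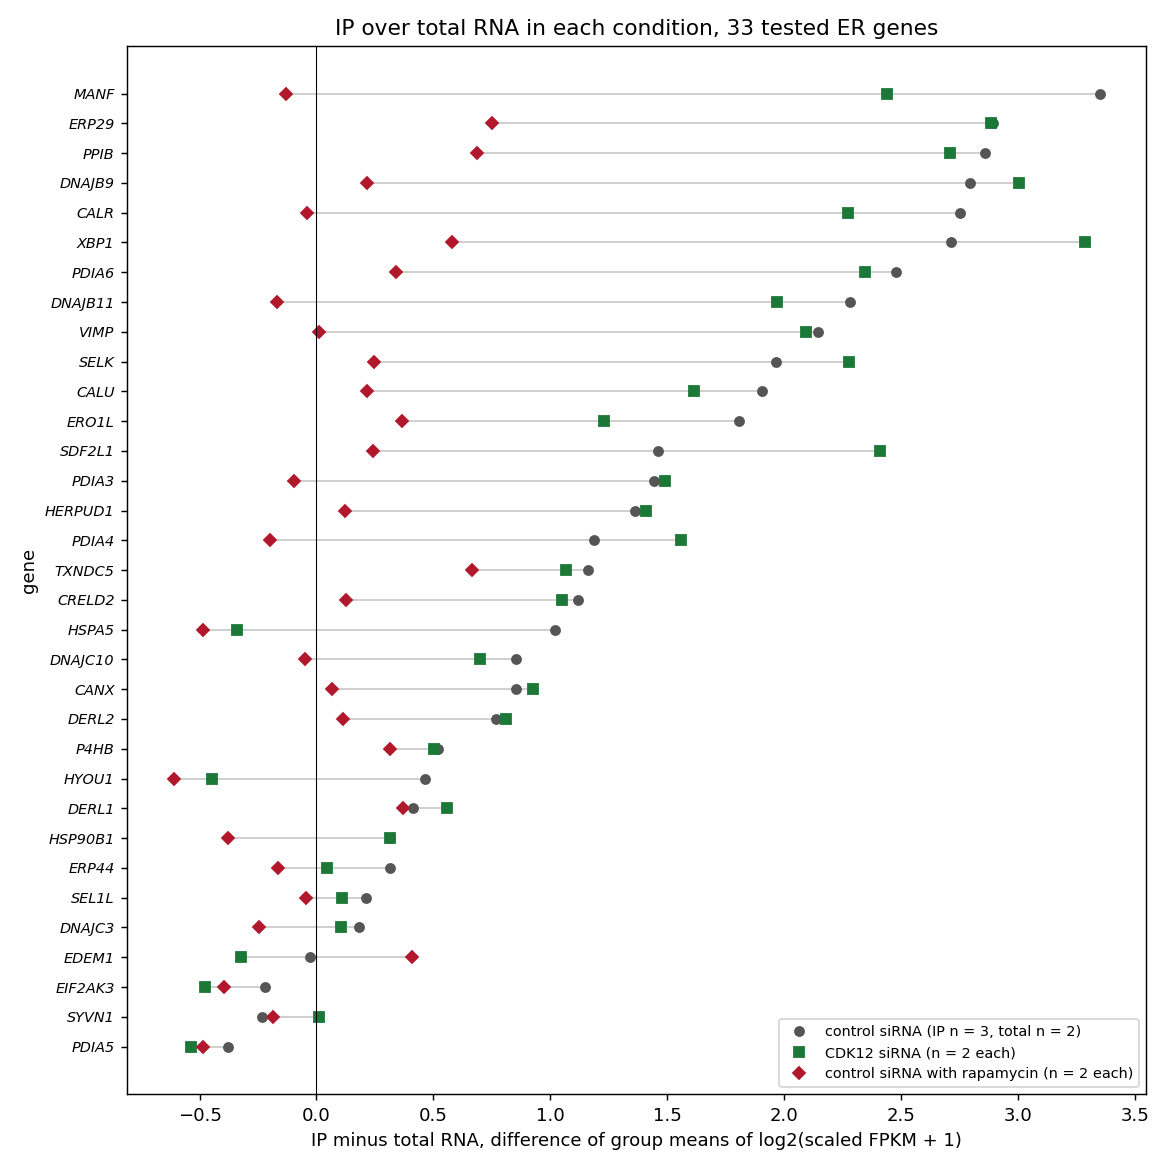
IP minus total RNA (horizontal, difference of group means of log2(scaled FPKM + 1)) for the 33 tested ER genes, ordered by the value in control cells. Circles are control siRNA, squares CDK12 siRNA and diamonds rapamycin. Circles run from -0.38 to 3.35 while all diamonds lie between -0.61 and 0.75. After quantile normalization HSPA5, HSP90B1, HYOU1, DNAJC10, CANX, P4HB, TXNDC5, SEL1L and DERL1 fall below 0 in control cells.

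After CDK12 siRNA fewer ER genes passed the test than with rapamycin. In total RNA 8 of 33 were called higher, against 23.3% of all tested genes, and 2 lower, against 19.5%. As shares, 24.2% and 6.06% of the ER genes were called, near and under that background. Among genes with a mean FPKM of at least 5, 5 of 22 ER genes were called higher, against 14.8% of all, and 1 lower, against 19.5%. The median was 0.08 beside 0.02 over all genes, and with no scaling between libraries it was -0.08. EDEM1 rose most, from 3.37 and 3.55 scaled FPKM to 6.67 and 6.88 (0.80 ± 0.08, adjusted p = 4.24e-05). ERO1L went from 2.53 and 2.61 to 4.36 and 4.40 (0.59 ± 0.13, adjusted p = 0.00554). HYOU1 (GRP170), a large Hsp70 and exchange factor of BiP, went from 7.72 and 7.11 to 12.5 and 10.8 (0.59 ± 0.18, adjusted p = 0.0259). HSPA5 went from 23.8 and 24.4 to 37.3 and 35.4 (0.57 ± 0.12, adjusted p = 0.00509). In these 4 genes both siRNA libraries lay above both control libraries, as they did in 17 of the 33 ER genes. That count was not made over all tested genes. The 2 genes called lower were XBP1, from 4.89 and 4.69 to 3.33 and 2.73 (-0.53 ± 0.16, adjusted p = 0.0246), and PDIA4, a disulfide isomerase, from 2.29 and 2.09 to 1.5 and 1.56 (-0.33 ± 0.07, adjusted p = 0.00311).

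Leaving out any of the 4 libraries compared left 3 ER genes called higher. The calls lost in each case were those of HYOU1 (adjusted p = 0.054 to 0.144), DNAJC10 (adjusted p = 0.056 to 0.127), DNAJC3 (adjusted p = 0.0889 to 0.136) and ERP44 (adjusted p = 0.0913 to 0.189). ERP44 also lost its call without any control IP library or any rapamycin library of either fraction (adjusted p = 0.0546 to 0.0651). PDIA5 also lost it without the first siRNA library (adjusted p = 0.0649) or the second control library (adjusted p = 0.136). It fell below the filter without the second siRNA library or the first control library, so it was tested only through libraries compared here. XBP1 lost its call without the second siRNA library (-0.42, adjusted p = 0.163), the first control library (-0.50, adjusted p = 0.111) or the second (-0.55, adjusted p = 0.0768). With no scaling 2 genes were called higher, and HSPA5 (0.36, adjusted p = 0.0575) and HYOU1 (0.39, adjusted p = 0.139) were not.

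In the IP, CDK12 siRNA gave 2 genes called higher, against 13.7% of all tested genes, and 2 lower, against 18.4%, with medians of 0.00 and -0.02. Among genes with a mean FPKM of at least 5, 2 of 22 ER genes were called higher, against 13.5% of all, and 2 lower, against 26.3%. HSPA5 fell from 48.9, 47.4 and 53.9 scaled FPKM to 31.2 and 26.0 (-0.79 ± 0.11, adjusted p = 0.00111). MANF fell from 110.3, 93.1 and 93.1 to 63.4 and 55.0 (-0.73 ± 0.11, adjusted p = 0.00171). EDEM1 rose from 3.15, 3.39 and 3.62 to 5.08 and 5.35 (0.50 ± 0.07, adjusted p = 0.00101). In these 3 genes both siRNA libraries lay on one side of all controls, and the calls held on leaving out any library. Of the 33 ER genes, 6 had both siRNA libraries above all controls and 7 had both below, and all tested genes were not counted in this way. DNAJB9 went from 17.5, 16.7 and 14.7 to 21.0 and 36.9 (0.74 ± 0.22, adjusted p = 0.0327). Both siRNA libraries lay above the controls, but the call was lost without siRNA replicate 3 (0.35, adjusted p = 0.226), and without any control IP library (adjusted p = 0.056 to 0.0855).

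The spread of the 2 CDK12 siRNA IP libraries touched other members. SDF2L1 was at 4.04 and 12.01 scaled FPKM in replicates 2 and 3, SELK, an ERAD selenoprotein, at 4.50 and 13.5, HYOU1 at 10.5 and 6.45, and CALR at 457 and 305. Without replicate 2, 6 genes were called higher and 8 lower, among them CALR (-0.67, adjusted p = 0.00189), HYOU1 (-0.64, adjusted p = 0.0038), SDF2L1 (1.09, adjusted p = 0.000858) and SELK (1.06, adjusted p = 0.00133). Without replicate 3, or without any control IP library, 1 was called higher.

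The interaction for CDK12 siRNA was called lower in 5 of 33 ER genes, against 22.4% of all tested genes, and higher in 1, against 16.7%. The median was -0.08 beside -0.03 over all genes, and 0.24 beside 0.19 with no scaling between libraries. Among genes with a mean FPKM of at least 5 it was called lower in 4 of 22 ER genes, against 19.7% of all, and higher in 0, against 15.4%. Without siRNA IP replicate 2 the counts were 8 lower and 4 higher, and without the first control total RNA library 3 lower and 0 higher. Without the second control or first siRNA total RNA library 2 were called lower, and without the second siRNA total RNA library or the second control IP library 3 were. HSPA5 had the widest difference between fractions, at -1.36 ± 0.17 (adjusted p = 0.000441), with a rise in total RNA and a fall in the IP. Its IP level was 2.08 times that of total RNA in control cells and 0.786 times after CDK12 siRNA. MANF gave -0.91 ± 0.17 (adjusted p = 0.00317). These calls of HSPA5 and MANF held in every setting run. HYOU1 gave -0.91 ± 0.24 (adjusted p = 0.0162), and the call was lost without the first siRNA total RNA library (adjusted p = 0.0657) or the second control one (adjusted p = 0.0529). ERO1L (-0.58 ± 0.18, adjusted p = 0.0295) and EDEM1 (-0.30 ± 0.10, adjusted p = 0.0483) lost theirs on leaving out 7 and 11 of the 13 libraries. With no scaling HYOU1 was at -0.55 (adjusted p = 0.122), ERO1L at -0.24 (adjusted p = 0.321) and EDEM1 at 0.03. PDIA4 was called higher (0.37 ± 0.09, adjusted p = 0.0105), from 6.06, 6.56 and 6.15 to 6.65 and 6.25 scaled FPKM in the IP against the fall in total RNA, and lost the call without the first control total RNA library (adjusted p = 0.0506).

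**Figure D4:**
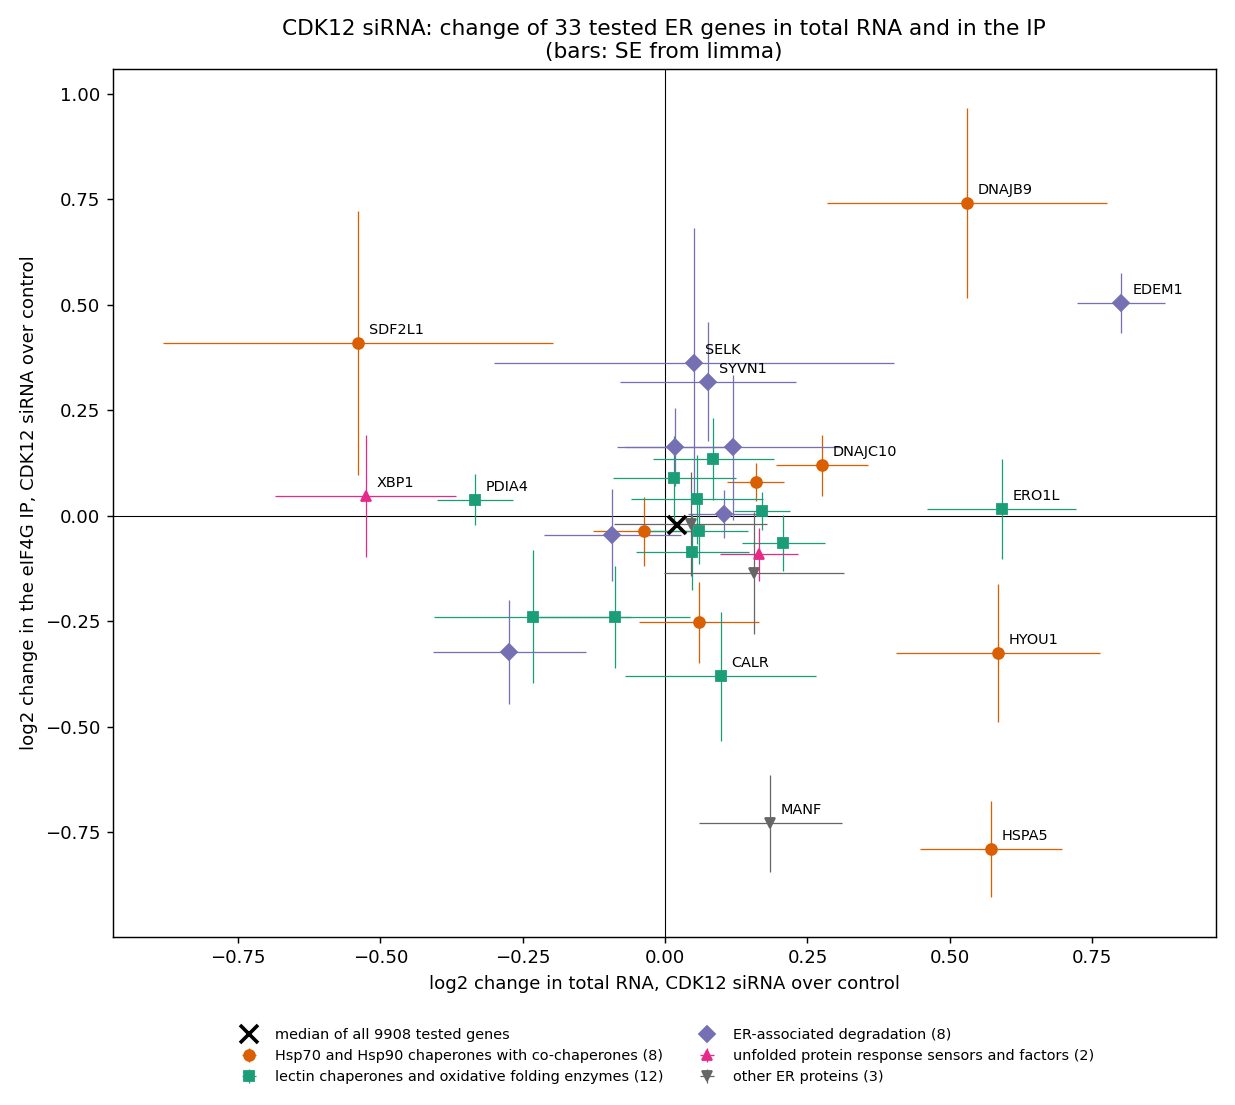
Change after CDK12 siRNA in total RNA (horizontal) and in the eIF4G IP (vertical) of the 33 tested ER genes, as differences of log2(scaled FPKM + 1), with the SE from limma as bars and the median of all 9908 tested genes as a cross. HSPA5 lies at 0.57 and -0.79, EDEM1 at 0.80 and 0.50, and most other genes lie near the cross. The wide bars of SDF2L1, SELK and DNAJB9 go with the spread of the 2 siRNA IP libraries.

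A list of 74 other genes of ER folding and the UPR, of which 65 were tested, was read beside them. With rapamycin 24 of the 65 rose in total RNA (36.9%, against 20.4% of all tested genes) and 4 fell (6.15%, against 16.2%). In the IP 13 rose (20%, against 32.2%) and 37 fell (56.9%, against 40.3%). The interaction was called lower in 38 (58.5%, against 37.9%) and higher in 10 (15.4%, against 24.5%). In the control IP 51 were higher (78.5%, against 54.0%) and 5 lower (7.69%, against 26.4%) than in total RNA. CEBPB, a transcription factor of stress responses, rose in total RNA from 3.15 and 3.01 to 14.1 and 11.98 scaled FPKM with rapamycin (1.78 ± 0.16, adjusted p = 0.000107). DDIT3 (CHOP), the factor of the PERK arm that promotes cell death, rose from 3.68 and 3.32 to 7.57 and 6.58 (0.84 ± 0.12, adjusted p = 0.00079). FKBP2, an ER prolyl isomerase, fell in the IP from 399, 255 and 298 to 22.4 and 18.6 (-3.87 ± 0.23, adjusted p = 6.52e-07), below all controls. TRIB3, a pseudokinase of the ATF4 arm, rose there from 0.524, 0.411 and 0.502 to 2.03 and 1.94 (1.01 ± 0.06, adjusted p = 6.4e-07). ATF4, whose translation PERK favours, was higher in the control IP, at 177, 176 and 181, than in total RNA, at 24.2 and 26.1 (2.77 ± 0.12, adjusted p = 8.59e-08). After CDK12 siRNA 14 of the 65 rose in total RNA (21.5%, against 23.3% of all) and 8 fell (12.3%, against 19.5%), and in the IP 14 rose (21.5%, against 13.7%) and 7 fell (10.8%, against 18.4%). MAN1B1, a mannosidase that marks glycoproteins for ERAD, rose in both, in total RNA from 1.08 and 0.929 to 2.04 and 2.04 (0.60 ± 0.06, adjusted p = 3.89e-05) and in the IP from 1.25, 1.19 and 1.23 to 2.42 and 2.14 (0.56 ± 0.05, adjusted p = 0.000133).

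**Figure D5:**
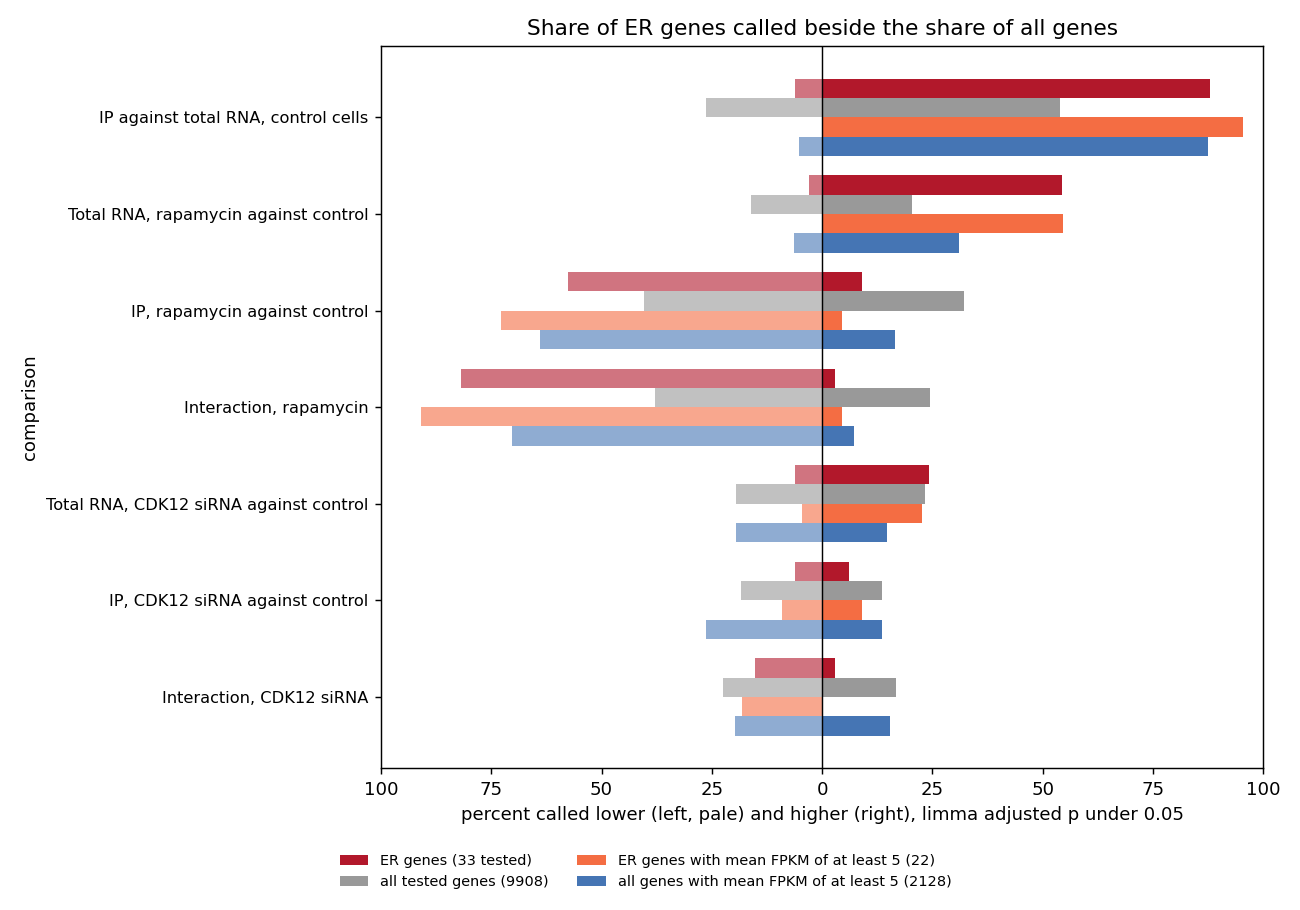
Percent of genes called lower (left, pale) and higher (right) in each of 7 comparisons, for the 33 tested ER genes, all 9908 tested genes, the 22 ER genes with a mean FPKM of at least 5 and all 2128 such genes. In the rapamycin interaction 81.8% of the 33 ER genes and 37.9% of all genes are called lower. Among all genes of at least 5 FPKM the share is 70.2%, below that of the 22 such ER genes. After CDK12 siRNA 24.2% of ER genes and 23.3% of all genes are called higher in total RNA, and 5 of the 22 ER genes of at least 5 FPKM against 14.8% of such genes.

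The mean profile of the 33 genes, centred on each gene, was highest in the control IP (0.67) and the CDK12 siRNA IP (0.65), at -0.05 in the rapamycin IP, and at -0.62, -0.53 and -0.12 in total RNA of control, CDK12 siRNA and rapamycin cells. The genes outside the list whose 6 group means followed this profile most closely were UGDH, UFM1, PARTICL, AKTIP and PIGA, with Pearson's r of 0.9982, 0.9975, 0.9948, 0.994 and 0.9937. These coefficients are over 6 group means that share libraries, and are descriptions.

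The authors' deposited table marks genes as having lost eIF4G binding or changed in expression, by thresholds on differences of mean log2(FPKM + 1) with no scaling factor. The authors' deposited table marks 23 of the 37 ER genes as having lost binding with rapamycin, against 12.4% of all 26454 genes, and 3 after CDK12 siRNA, against 4.21%. HSPA5, HYOU1 and MANF are the latter 3 in the authors' deposited table. Of all 26454 genes 9908 were tested here, and of the 37 ER genes 33 were, so these shares set groups of unlike level side by side. Among tested genes the rapamycin interaction was called lower here in 37.9%. The authors' deposited table marks 6 ER genes as changed in expression with rapamycin, all of them up, against 2.42% of all genes: DNAJB9, SDF2L1, XBP1, HERPUD1, SELK and CRELD2. The authors' deposited table marks 0 of the ER genes as changed after CDK12 siRNA, against 2.12%. Of these 6, SELK did not pass the test in total RNA (0.98 ± 0.35, adjusted p = 0.0537).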

How the data were processed

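The data are 13 libraries of U2OS RNA, grouped and numbered as in the sample labels. The authors made the deposited FPKM with HOMER over whole hg19 gene bodies, introns included, per the file headers. The submitters' processing notes also list STAR 2.4.0k and FastQC. No strand setting for the counting was found in the headers or labels. The authors' deposited means and differences are on a log2 scale of FPKM + 1, and their TRUE or FALSE marks are thresholds on these. Low FPKM values all came out (100%) as whole reads within 0.1 read, which gave the depths.

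Here each library's FPKM was divided by its median-ratio factor, and log2(scaled FPKM + 1) was fitted with limma 3.58.1 (lmFit, eBayes with a trend) in R 4.3.3, which understates folds of low genes. A gene was tested if at least 2 libraries reached an FPKM of 1. A single model held all 6 groups and no covariate, with 9.22 degrees of freedom. Benjamini-Hochberg adjustment ran over all tested genes in each of 7 contrasts. The fit was also run on counts simulated with a fixed spread between replicates. The spread of these libraries varied between groups, so that run does not bear on the calls here. Replicates were compared by chi-square of the recovered reads, which was 3.53 to 57.6 per degree of freedom. No threshold for likeness was set, and these values cannot show whether replicates were separate cultures. Alternatives changed the scaling, pseudocount, filter, replicate block, length trend, groups fitted and libraries. Other software was the R package data.table (version 1.17.8), pandas 2.3.3 with numpy 2.4.6 under Python 3.11.15, and matplotlib 3.10.9.

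Members, roles, companion genes and marker lists were chosen with earlier results of these data known. Values per library are given for members among the 3 highest rises or falls past the threshold in a contrast, and for others where a comparison uses them. Companion genes are named from the 3 smallest p in each contrast. Libraries of compared groups that do not overlap were counted over the tested ER genes and not over all genes.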

Additional observations from a re-analysis of the deposited data

Results flagged for a closer look

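For 8 results the change in the eIF4G IP and the change in total RNA were called in opposite directions and the difference between them passed the threshold in limma's fit. Such results were sought among the ER genes only, with no count over all tested genes. HSPA5 fell in the IP and rose in total RNA after CDK12 siRNA, with a difference of -1.36. With rapamycin 7 genes fell in the IP and rose in total RNA. Their differences were -3.48 for MANF, -2.58 for DNAJB9, -2.14 for PDIA6, -2.13 for XBP1, -1.39 for PDIA4, -0.90 for DNAJC10 and -0.79 for CANX. After quantile normalization the difference of CANX was 0.52, while those of the other 7 results kept their direction. The opposite calls in the 2 fractions then held for HSPA5 and PDIA4. The IP changes of DNAJB9 (0.045), XBP1 (0.46) and CANX (0.63) were above 0, the IP fall of DNAJC10 was lost (-0.09, adjusted p = 0.252), and so were the total RNA rises of MANF (0.15, adjusted p = 0.3), PDIA6 (0.06, adjusted p = 0.626) and CANX (0.12, adjusted p = 0.45). The IP falls of CANX, DNAJB9 and XBP1 and the total RNA rises of CANX, DNAJC10, MANF and PDIA6 were each lost on leaving out at least 1 library.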

How the results depend on the processing

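Of 4977 values under alternatives, 4618 kept their direction and side of the threshold, 136 became called, 196 lost the call and 27 changed sign. The cause was not tested in any case. With no scaling between libraries, ER genes called higher numbered 7 in the IP and 2 in total RNA after CDK12 siRNA, with 5 higher and 2 lower in that interaction. They numbered 8 in the IP with rapamycin, 0 were lower in total RNA with rapamycin, and 4 were lower in the control IP against total RNA. The signs turned for DNAJC3 (0.12) and CANX (0.035) in the IP with rapamycin, and for HSP90B1 (0.38) and EDEM1 (0.026) in the CDK12 siRNA interaction. That setting moved the median of all genes from 0.06 to 0.22 in total RNA and from -0.05 to 0.12 in the IP with rapamycin, from 0.02 to -0.10 in total RNA and from -0.03 to 0.19 in the interaction for CDK12 siRNA, and from 0.35 to 0.22 for IP against total RNA. With quantile normalization the latter went to 0.03, and the ER genes gave 16 higher and 11 lower in the control IP, with HSPA5 at -1.20, HSP90B1 at -1.74, HYOU1 at -0.999, DNAJC10 at -0.24, CANX at -1.23, P4HB at -1.44, TXNDC5 at -0.0062, SEL1L at -0.094 and DERL1 at -0.46. In the IP with rapamycin 11 were higher, with HSP90B1 at 0.77, DNAJB9 at 0.045, CANX at 0.63, HERPUD1 at 0.35 and XBP1 at 0.46. In the rapamycin interaction 5 were higher, with HSP90B1 at 0.68, CANX at 0.52, P4HB at 0.98, TXNDC5 at 0.079 and DERL1 at 0.39. In the CDK12 siRNA interaction 3 were higher and 9 lower, and 5514 of all genes were called in total RNA with rapamycin. The rapamycin and IP against total RNA medians of the ER genes kept their sign under every alternative run.

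With a pseudocount of 0.1, 3 were higher in the CDK12 siRNA interaction and 0 lower in total RNA with rapamycin. With a pseudocount of 5, 4 were lower in the IP and 1 in total RNA after CDK12 siRNA. With a filter at a mean FPKM of 5, in total RNA after CDK12 siRNA 5 were higher and 1 lower, in the IP with rapamycin 1 was higher, and 0 were lower in total RNA with rapamycin and in the control IP, or higher in the CDK12 siRNA interaction. Over all genes that filter gave 846 calls in the IP and 732 in total RNA after CDK12 siRNA, 1716 and 795 with rapamycin, 1973 for IP against total RNA, and 746 and 1646 in the interactions, against 3174, 4240, 7184, 3632, 7972, 3881 and 6176, since fewer genes were tested. With no filter 8702 were called in total RNA after CDK12 siRNA, 10790 in the IP and 6344 in total RNA with rapamycin, 14028 for IP against total RNA, and 7151 and 9474 in the interactions. Without it 5 ER genes were higher in the IP and 2 lower in total RNA with rapamycin, 5 lower in the control IP and 2 higher in the rapamycin interaction. With the length trend removed 5 were lower in the IP and 5 higher in total RNA after CDK12 siRNA, 7 higher in the IP and 0 lower in total RNA with rapamycin (PDIA5 at 0.0072), and 4 lower in the control IP, where HSP90B1 was at -0.21, HYOU1 at -0.14 and P4HB at -0.0086. With the compared groups alone 1 was higher in the IP (1015 of all genes called) and 5 lower in total RNA after CDK12 siRNA, 0 lower in total RNA with rapamycin and 3 lower in the CDK12 siRNA interaction.

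With the replicate block 0 genes were lower in total RNA with rapamycin and 2 higher in the CDK12 siRNA interaction. Over 231 values of ER genes 5 became called and 4 lost the call. Deviations of same-numbered libraries correlated at -0.112 to 0.167. In groups of 2 libraries the deviations mirror each other, so few of these values are independent. They cannot settle whether same-numbered libraries were paired.

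Leaving out 1 library gave, for ER genes called higher and lower, 1 to 6 and 2 to 8 in the IP and 3 to 10 and 1 to 3 in total RNA after CDK12 siRNA, 2 to 5 and 17 to 21 in the IP and 11 to 22 and 0 to 1 in total RNA with rapamycin, 27 to 29 and 1 to 3 in the control IP, 0 to 4 and 2 to 8 in the CDK12 siRNA interaction, and 1 and 23 to 28 in the rapamycin interaction. Over all genes it gave 2541 to 4128, 2745 to 4928, 6252 to 7576, 1734 to 4611, 7373 to 8169, 2570 to 4910 and 5225 to 6733 calls, in the same order. With 2 or 3 libraries a group, date tied to rapamycin and no IP with an unrelated antibody analysed, the precision of small changes is limited.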
